A study of Mus musculus with 5 samples.

Results

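NEUROD2 binding was examined at the genes of 9 synaptic adhesion proteins, the neurexins Nrxn2 and Nrxn3, the neuroligins Nlgn1, Nlgn2 and Nlgn3 and the leucine-rich repeat proteins Lrrtm1, Lrrtm2, Lrrtm3 and Lrrtm4, out of 21938 annotated protein-coding genes. A locus was the span of the longest transcript of the gene plus 50 kb beyond either end. The start of a gene is that of its longest transcript, 1 start per gene, also where the closest gene is named, unless starts of other transcripts are mentioned. All peaks with a midpoint in a locus were taken, and peaks that overlapped by at least 1 bp were merged into regions, which gave 106 of the 53833 merged regions of the genome. Of these, 56 carried peaks of at least 2 antibodies, and they are called shared regions here.

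Neurexins are presynaptic membrane proteins whose extracellular parts bind neuroligins and LRRTM proteins on the postsynaptic side of the cleft, and these pairs link the membranes of both neurons and recruit receptors and scaffolds. Neurexin genes are known for long alpha transcripts from an upstream start and shorter beta transcripts from an internal start. NEUROD2 is a basic helix-loop-helix transcription factor of cortical excitatory neurons that binds E-boxes, the short DNA element CANNTG.

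The study measured NEUROD2 occupancy by ChIP-Seq in cerebral cortex of BALB/c embryos at stage E14.5, and asked which genes NEUROD2 binds while projection neurons are being made. Chromatin was precipitated with 3 NEUROD2 antibodies, a mouse antibody (ab1) and a pair of rabbit antibodies (ab2, ab3), with 1 library each, and 2 GFP antibodies served as controls. Each experiment used cortices pooled from embryos of several litters, so a peak is an average over all cell types of the dissected cortex. The control for peak calling was the GFP library matched by host, so that ab2 and ab3 share one. The peak lists hold 51841 entries for ab1, 35310 for ab2, and far fewer, 7470, for ab3. There was 1 condition and no repeat of any antibody, so values are set side by side without a test between groups, and the number of sequenced reads was not analysed here. The score of a peak is the p-value of the peak caller as −log10 multiplied by 10. It had not been scaled between libraries, so raw scores of different antibodies are given side by side as descriptions, and a score is ranked by the percent of that antibody's peaks with a lower score. Nhlh2, the positive control gene of the study, carried a region at chr3:102009586-102010536, centred 85 bp upstream of its start, with a score of 158.4 for ab1 and 152.8 for ab2. There was no ab3 peak there, so at this control the ab3 list differs from those of ab1 and ab2. The paper reports that PCR amplified this promoter from the chromatin of every NEUROD2 antibody, but not from that of a GFP antibody. The reason for the missing ab3 peak was not tested.

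The regions on which the results turn are shown first, as the central 200 bp around the midpoint in the GRCm38 reference genome (mm10), on the plus strand. The first region of a locus is the one with the most antibodies and then the highest score. No window is shown for the first regions of Nlgn3 and Lrrtm1, whose central 200 bp overlap annotated exons, or for Lrrtm2. Capitals mark extended E-boxes, that is CA, then G or T, then C or A, then TG, then G or T, on either strand. An extended E-box on both strands at the same core gives 8 capitals. The reference is of strain C57BL/6J, and base differences of BALB/c mice are not seen in it. The first region of each locus with a window is given here.
Nrxn2, chr19:6416148-6416347: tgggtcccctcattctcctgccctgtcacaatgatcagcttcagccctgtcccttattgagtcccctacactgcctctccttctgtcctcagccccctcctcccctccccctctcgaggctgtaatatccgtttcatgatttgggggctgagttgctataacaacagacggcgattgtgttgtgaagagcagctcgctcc
Nrxn3, chr12:88860177-88860376: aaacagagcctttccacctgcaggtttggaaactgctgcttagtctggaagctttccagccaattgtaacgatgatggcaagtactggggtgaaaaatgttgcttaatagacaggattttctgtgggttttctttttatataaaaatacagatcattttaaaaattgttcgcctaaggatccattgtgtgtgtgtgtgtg
Nlgn1, chr3:25773714-25773913: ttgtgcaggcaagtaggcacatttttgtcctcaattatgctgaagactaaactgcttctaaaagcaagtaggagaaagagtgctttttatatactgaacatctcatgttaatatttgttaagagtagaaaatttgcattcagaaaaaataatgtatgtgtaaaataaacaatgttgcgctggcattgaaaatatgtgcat
Nlgn2, chr11:69800471-69800670: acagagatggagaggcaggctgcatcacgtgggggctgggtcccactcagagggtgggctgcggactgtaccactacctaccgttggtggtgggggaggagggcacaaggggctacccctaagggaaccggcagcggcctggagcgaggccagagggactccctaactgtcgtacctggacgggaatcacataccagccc
Lrrtm3, chr10:63934192-63934391: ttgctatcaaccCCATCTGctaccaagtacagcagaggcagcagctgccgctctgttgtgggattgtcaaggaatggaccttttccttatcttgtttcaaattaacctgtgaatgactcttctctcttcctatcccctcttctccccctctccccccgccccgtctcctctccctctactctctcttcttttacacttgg
Lrrtm4, chr6:80622843-80623042: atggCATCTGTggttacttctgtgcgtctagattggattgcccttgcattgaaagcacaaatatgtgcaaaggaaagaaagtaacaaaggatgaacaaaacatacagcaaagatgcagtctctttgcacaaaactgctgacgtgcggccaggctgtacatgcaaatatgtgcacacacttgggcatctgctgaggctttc
The windows of the Nrxn2, Nrxn3, Nlgn1 and Nlgn2 regions had no extended E-box, and those of Lrrtm3 and Lrrtm4 had 1 each, 84 bp and 93 bp from the midpoint. The whole regions held more of them, namely 5 for Nrxn2, 3 each for Nrxn3, Nlgn1 and Nlgn2, 2 for Lrrtm3 and 6 for Lrrtm4.

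A further 3 regions with peaks of all 3 antibodies were chosen after their values were seen, because they place E-boxes close to the midpoint.
Nrxn3, chr12:90142105-90142304: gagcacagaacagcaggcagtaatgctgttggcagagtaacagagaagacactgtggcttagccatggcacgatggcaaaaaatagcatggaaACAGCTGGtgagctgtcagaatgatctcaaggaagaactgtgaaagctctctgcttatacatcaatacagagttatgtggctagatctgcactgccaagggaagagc
Nlgn1, chr3:25679415-25679614: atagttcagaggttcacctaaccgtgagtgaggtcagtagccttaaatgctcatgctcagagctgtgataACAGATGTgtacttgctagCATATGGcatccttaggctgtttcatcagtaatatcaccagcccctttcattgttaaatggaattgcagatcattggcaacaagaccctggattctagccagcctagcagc
Lrrtm4, chr6:80549982-80550181: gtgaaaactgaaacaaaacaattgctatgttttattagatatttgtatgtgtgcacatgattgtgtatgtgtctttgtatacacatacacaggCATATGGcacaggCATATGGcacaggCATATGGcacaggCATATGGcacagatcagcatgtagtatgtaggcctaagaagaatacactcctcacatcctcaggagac
The Nrxn3 window has the core CAGCTG 3 bp from the midpoint. The Nlgn1 window has CAGATG and CATATG at 26 bp and 8 bp from it. The Lrrtm4 window has 4 copies of CATATG, each 13 bp after the one before, in a short tandem repeat.

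Shared regions were found in all 9 loci, and at 67.6% of all protein-coding loci under the same rule. Without ab1, or without ab2, 5 loci kept a shared region, and Nrxn2, Lrrtm1, Lrrtm2 and Lrrtm3 had none. With a score of at least 100 required, 8 loci had one, and Lrrtm1 did not. Nrxn3 held 21 of them, Nlgn1 9, Lrrtm4 7, Nrxn2, Nlgn3 and Lrrtm3 4 each, Lrrtm1 3, and Nlgn2 and Lrrtm2 2 each. Regions with all 3 antibodies stood in 5 loci, 4 in Nrxn3, 2 each in Nlgn1 and Lrrtm4, and 1 each in Nlgn2 and Nlgn3, and 26.7% of protein-coding loci held at least 1. The 3 loci with the most shared regions, Nrxn3, Nlgn1 and Lrrtm4, were also the longest. Per 100 kb, the Nlgn3 locus was the densest, with 3.15 shared regions, and the Lrrtm4 locus the sparsest, with 0.785. This order depends on the weaker peaks and on both ab1 and ab2. With a score of at least 100, Nrxn2 was the densest with 1.86, Nlgn3 fell to 1 region (0.789 per 100 kb) and Lrrtm1 to none. Without ab1, or without ab2, Nlgn3 also had 1 region, and Nlgn2 was the densest with 0.872. Over all 21938 protein-coding loci the median was 0.950 and the value that 75% of loci do not exceed was 2.35, so that 7 members lay above the median and 2, Nlgn1 with 0.894 and Lrrtm4, lay below it. Among loci of genes that span at least 100 kb the median was 1.31, and 3 of the 5 such members, Nlgn1, Lrrtm4 and Nrxn3 with 1.23, lay below it. The 4 shorter members lay above the median of shorter loci, 0.931. The median of the 9 members was 1.74, and with their loci pooled the value was 1.23.

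**Figure D1:**
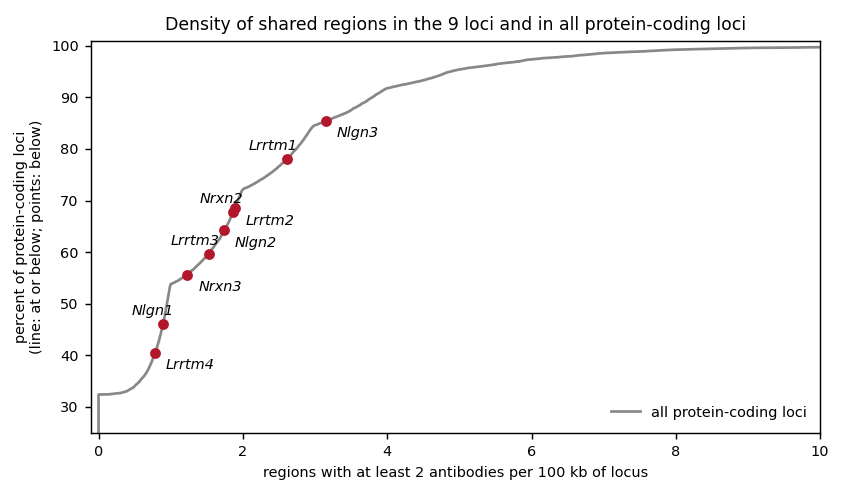
The curve gives the percent of protein-coding loci with at most the number of shared regions per 100 kb on the horizontal axis, and the red points are the 9 members. Points run from 0.785 for Lrrtm4 to 3.15 for Nlgn3, which is above 85.5% of loci.

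The antibodies contributed unequally. Of the 106 regions, 103 had an ab1 peak, 59 an ab2 peak and 10 an ab3 peak. The share with at least 2 antibodies was 52.8% (95% Wilson interval 43.4 to 62.1%, counting error only), beside 59.9% of all merged regions and 59.4% of those in the loci of protein-coding genes. All 3 antibodies marked 10 regions, 9.43% (5.21 to 16.5%), beside 13.3% of all merged regions, so both shares stood near the background. Among the 50 regions with 1 antibody, 47 were of ab1, 3 of ab2 and none of ab3. Nrxn2 had the largest share of regions with 1 antibody among the members, 12 of 16 (75.0%), all of ab1 with scores from 54.2 to 235.6. In the Nlgn3 locus, all 4 regions were shared. Because ab3 peaks are few, the shared regions rest on ab1 and ab2. Without ab1, or without ab2, 10 shared regions were left, and without ab3 56.

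**Figure D2:**
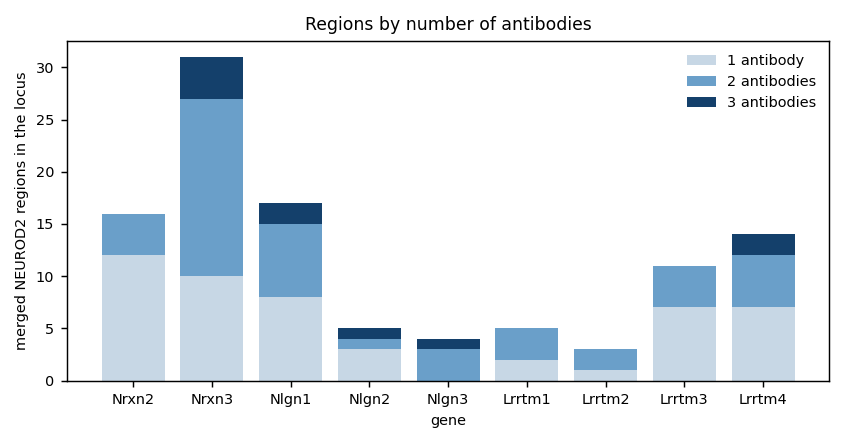
Bars give the number of merged regions in each locus, split by how many antibodies had a peak. Nrxn3 has 31 regions, 21 of them shared, while Nrxn2 has 16, of which 12 have 1 antibody.

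Scores were high in a few regions and moderate in most. In shared regions of the members ab1 had a median score of 246.8, beside 277.7 in all shared regions of the genome. For ab2 these medians were 134.8 and 140.2, and for ab3 57.57 and 90.46. Most of the 10 ab3 scores were low for that antibody. For 7 of them fewer than 25% of ab3 peaks scored lower, and the other 3, in Lrrtm4 and Nrxn3, stood above 31.6, 61.9 and 98.9% of ab3 peaks. Unscaled, the ab1 score was above the ab2 score in 51 of 56 shared regions (91.1%), as in 89.0% of all regions with both antibodies. The reverse held for 3 regions of Nrxn3, 1 of Lrrtm1 and 1 of Lrrtm3.

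**Figure D3:**
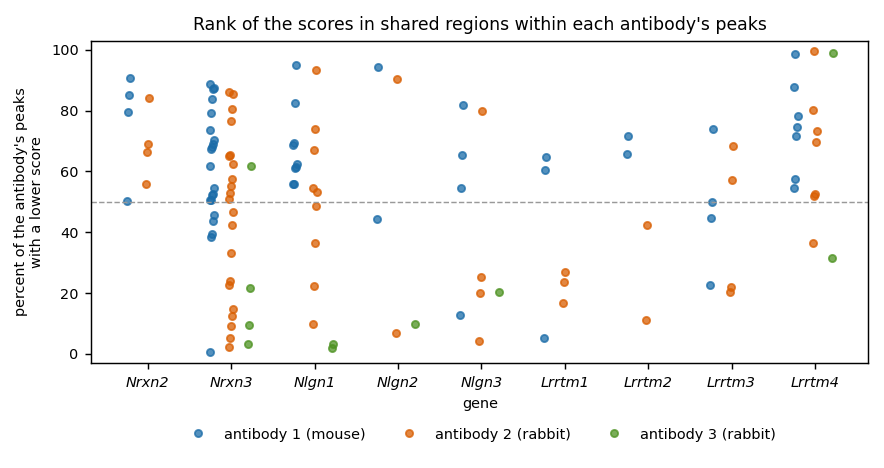
Each point is 1 shared region and 1 antibody, placed by the percent of that antibody's peaks with a lower score. The Lrrtm4 region with all antibodies near the top stands at 98.6, 99.5 and 98.9%, while 7 of the 10 ab3 points lie below 25%.

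Nrxn3, whose protein is a presynaptic receptor for the postsynaptic partners named above, had the most shared regions. They lay from 137.3 kb to 1480.3 kb after the start of its longest transcript, and all 21 were intronic, 6 in intron 1, 7 in intron 13, 5 in intron 14 and 1 each in introns 5, 7 and 15. None was within 1 kb of an annotated start of the gene. The longest Nrxn3 transcript, on chromosome 12, is annotated as degraded by nonsense-mediated decay, and the first start of a protein-coding transcript lies 71.5 kb into it. The last internal start of protein-coding transcripts, 1089.5 kb into the gene, had its closest shared region 4784 bp after it. That region, chr12:89816918-89817616, scored 218.2 for ab1 and 72.9 for ab2.

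The 4 Nrxn3 regions with all 3 antibodies were spread over the gene. The region chr12:88859474-88861080 in intron 1 scored 797.0 (ab1), 489.8 (ab2) and 54.4 (ab3). The region chr12:90141814-90142596 in intron 14, whose window with a central CAGCTG is printed above, scored 767.9, 469.4 and 109.5 in the same order. Its ab3 score was the highest of ab3 in the gene, above that of 61.9% of ab3 peaks. At chr12:89148770-89149739 in intron 1 the raw scores stood in another order, with 125.9 for ab1 against 362.5 for ab2, and 51.6 for ab3. The highest ab1 score of Nrxn3 belonged to a region with 2 antibodies, chr12:89668751-89669787 in intron 13, with 864.2 for ab1 and 153.9 for ab2. In intron 13, 5 shared regions stood between 946.3 and 999.7 kb after the start, with ab1 scores of 864.2, 352.1, 50.5, 303.2 and 459.1 in order along the gene. Close pairs also occurred, and 4 pairs of shared Nrxn3 regions stood 475 to 2860 bp apart. The longest stretch between shared Nrxn3 regions was 291.0 kb. With each gene given the start of its longest transcript, the closest protein-coding start of 8 of the 21 regions was that of Dio2, a deiodinase gene beyond the far end of Nrxn3. With the starts of every protein-coding transcript, Nrxn3 was the closest for all 21.

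In Nrxn2, a neurexin gene with a far shorter span of 114.5 kb on chromosome 19, shared regions gathered at the upstream end. The strongest, chr19:6415386-6417109, was centred 2483 bp upstream of the start and scored 1027.9 for ab1 and 432.6 for ab2. The others lay in intron 1 at chr19:6422944-6423864 (465.8 and 202.7), in intron 3 at chr19:6445682-6446607 (657.0 and 223.4) and in intron 5 at chr19:6453194-6453884 (151.0 and 148.0). None of the 4 had an ab3 peak. The remaining 12 regions, of ab1 alone, continued along the gene and past its end, to 131.0 kb after its start. One of them lay over the start of the longest transcript, with a score of 235.6, and another over the internal start 79.1 kb into the gene, with 100.7.

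Nlgn1 encodes a neuroligin found mainly at excitatory synapses. Of its 9 shared regions, 6 lay in intron 5, between 557.3 and 734.7 kb after the start. A span of 365.6 kb without a shared region separated them from the others. The strongest Nlgn1 region, chr3:25773120-25774507, scored 1653.8 (ab1), 853.9 (ab2) and 51.0 (ab3), and a second shared region began 95 bp beyond it, with 293.6 for ab1 and 143.8 for ab2. For ab1 and ab2 the strongest region stood above 95.1% and 93.5% of all peaks, while for ab3 only 1.94% of peaks scored lower. The other Nlgn1 region with all 3 antibodies, chr3:25679127-25679902, scored 215.1, 206.5 and 51.6. Near the start, a region at chr3:26333063-26333886 was centred 1015 bp upstream (211.7 for ab1 and 122.8 for ab2). Another at chr3:26324310-26325188 lay in intron 1, 7.7 kb after the start (554.0 and 267.0).

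Nlgn2, the neuroligin of inhibitory synapses, and Nlgn3, which is found at both kinds of synapse, are short genes in gene-rich surroundings. No shared region lay inside Nlgn2. The strongest region of its locus, chr11:69799206-69801936, scored 1524.4 for ab1, 656.3 for ab2 and 54.5 for ab3, but was centred 1286 bp from the start of Fgf11, a fibroblast growth factor family gene, inside that gene and 22.6 kb beyond the end of Nlgn2. The other shared region, chr11:69866162-69866863, lay 28.7 kb upstream of Nlgn2 and was closest to Tnk1, a tyrosine kinase gene, with scores of 128.1 and 55.1 for ab1 and ab2. In the Nlgn3 locus, a region centred 67 bp from the start of Foxo4, a forkhead transcription factor gene, scored 171.2 for ab1 and 74.6 for ab2. The region with all 3 antibodies, chrX:101260224-101261157, lay inside Foxo4 and scored 534.7, 347.8 and 60.6. Only the other 2 regions were closest to Nlgn3. The one in its intron 5, chrX:101317291-101317915, was weak (62.6 for ab1 and 53.1 for ab2), and the one 6.7 kb beyond its end, chrX:101332166-101333248, scored 249.7 and 68.1.

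LRRTM proteins are postsynaptic, and 3 of the 4 genes lie within an alpha-catenin gene on the opposite strand, Lrrtm1 in intron 8 of Ctnna2, Lrrtm2 in intron 7 of Ctnna1 and Lrrtm3 in intron 7 of Ctnna3. All shared regions of these 3 loci, 3, 2 and 4 in number, stood inside the catenin gene too, so a region there cannot be assigned to one of the pair by position. Lrrtm1 and Lrrtm2 were the members with a shared region over the start of the longest transcript. The Lrrtm1 region, chr6:77242290-77245301, was 3012 bp wide and scored 243.8 for ab1 and 64.7 for ab2. The midpoint of this merged region was 1107 bp after that start and 874 bp after the start of a shorter Lrrtm1 transcript. The region joined 3 peaks. The ab1 midpoint lay 63 bp from the region's midpoint, while the ab2 midpoint lay more than 1 kb from it, toward the start. The ab1 and ab2 scores thus do not place both antibodies at the same site, and the distance of 1107 bp depends on the merging. The Lrrtm2 region, chr18:35214520-35215378, was centred 75 bp from the start and scored 321.5 and 105.5. Both Lrrtm2 scores were moderate for their antibody, above 71.6% of ab1 peaks and 42.3% of ab2 peaks. The second Lrrtm2 region, chr18:35164698-35165442, lay 43.9 kb beyond the end of the gene, inside Ctnna1, and scored 254.5 and 58.8. With the starts of every protein-coding transcript, neither of these shared regions had Lrrtm2 as the closest gene. Of the other Lrrtm1 regions, the intronic chr6:77248641-77249167 scored 54.8 for ab1 and 76.8 for ab2, and chr6:77278612-77279329, 21.2 kb beyond the gene end, scored 207.7 and 72.2.

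Lrrtm3 had 4 shared regions and none with ab3. The strongest, chr10:63933970-63934614 in intron 2, scored 355.6 for ab1 and 217.6 for ab2 and was closer to the start of Gm10118, an annotated coding gene of which only the symbol is given, than to that of Lrrtm3. A region 14.1 kb into the gene, chr10:64076025-64076410, scored 128.6 and 70.5. The remaining Lrrtm3 regions stood outside the gene, one 40.3 kb upstream (148.9 for ab1 and 153.5 for ab2) and one 28.4 kb beyond the end (76.2 and 68.4).

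Lrrtm4 is the only LRRTM member outside a catenin gene and has a span of 791.3 kb. It held the region with the highest scores of all 9 loci, chr6:80622238-80623648 in intron 2, 604.1 kb after the start. The scores there were 3100.0 (ab1), 2573.4 (ab2) and 750.9 (ab3), and no other of the 106 regions had a higher score with any antibody. Among all peaks, 176 of the 35310 ab2 peaks and 82 of the 7470 ab3 peaks scored higher. For ab1, 69 of the 51841 peaks scored higher and 660 others had the same score to 1 decimal, so this repeated value cannot be read as a measured height, and the rank of the region for ab1 is not known more finely than above 98.6% of peaks. A second shared region lay 1611 bp away (366.5 for ab1 and 227.7 for ab2). The other region with all 3 antibodies, chr6:80549670-80550494, is the one with the tandem CATATG cores and scored 440.9, 263.1 and 68.8. All 6 shared regions inside the gene were in intron 2, and 5 of them lay between 471.5 and 732.1 kb after the start, beyond a span of 411.6 kb without a shared region. The second highest ab1 score of the gene, 800.0, with 355.3 for ab2, belonged to chr6:80750569-80751398 in the same intron. Lrrtm4 also held 2 of the 3 regions of ab2 alone, with scores of 76.2 and 55.4, and Nlgn1 the other, with 64.2. The last shared region in the locus, 47.0 kb beyond the end of the gene, scored 189.5 for ab1 and 92.9 for ab2. Another shared region just outside the 50 kb limit, at 52.3 kb, scored 590.2 and was not counted.

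**Figure D4:**
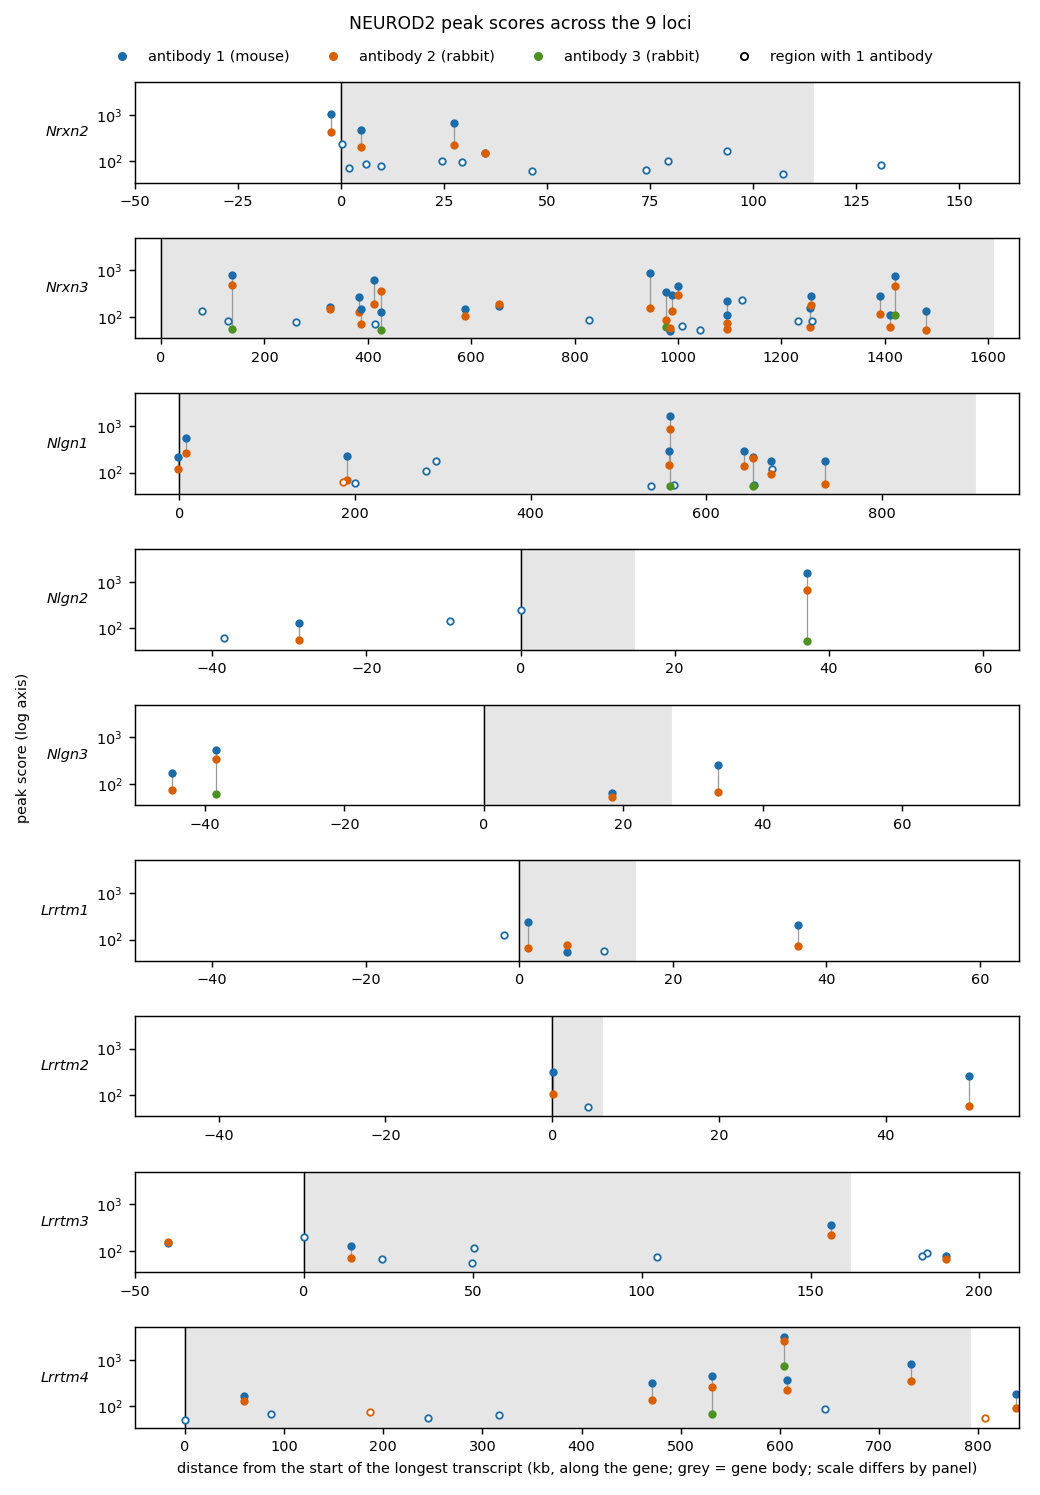
Each panel is 1 locus, with distance from the start of the longest transcript in kb on the horizontal axis (the scale differs between panels) and peak score on a logarithmic vertical axis; filled points are shared regions, open points have 1 antibody, and grey is the gene body. In Nrxn3, Nlgn1 and Lrrtm4 the region with the highest score stands far inside the gene, and in Nrxn2 it stands 2.5 kb upstream of the start.

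Position relative to start sites differed between the members. The start of the longest transcript lay under a shared region in 2 of 9 members, Lrrtm1 and Lrrtm2, beside 20.4% of protein-coding genes. It lay under a region of ab1 alone in 4, Nrxn2, Nlgn2, Lrrtm3 and Lrrtm4, beside 13.5% of protein-coding genes, and under no peak in 3, Nrxn3, Nlgn1 and Nlgn3. The ab1 scores over these 4 starts were 235.6 for Nrxn2, 246.9 for Nlgn2, 195.1 for Lrrtm3 and 51.6 for Lrrtm4. With the midpoint of the merged region within 1 kb as the rule, 1 member, Lrrtm2, had a shared region at the start of its longest transcript, beside 20.8% of protein-coding genes, and without ab1 or without ab2 no member did. Counting the start of any annotated transcript, the number was 3, since Lrrtm1 and transcripts of Nrxn2 without a protein product were added, beside 24.8% of protein-coding genes under that rule. With the starts of every protein-coding transcript, the Lrrtm2 region at the start was closest to a start of another gene.

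Of the 56 shared regions of the members, 42 (75.0%) were in an intron of the member, 6 were upstream, 6 downstream, and 1 each in a UTR exon and a coding exon. The intronic share was close to that of the regions with 1 antibody, 37 of 50 (74.0%), and the gene spans make up 80.2% of the length of the loci, so the share is near what the choice of loci gives. With 1 start per gene, 43 of 56 (76.8%) lay more than 10 kb from the start of any gene, beside 62.0% of all shared regions. With the starts of every annotated transcript these were 38 (67.9%, beside 52.6%). More than 100 kb from the start of any protein-coding gene lay 34 of 56 (60.7%, beside 35.2% of all shared regions), and with the starts of every protein-coding transcript 24 (42.9%, beside 28.8%). The 34 came from the long genes Nrxn3, Nlgn1 and Lrrtm4 alone, with 21, 7 and 6, and so did the 24, with 12, 6 and 6. The median width was 753 bp, beside 865 bp for all shared regions, and the median GC content of the central 200 bp was 47.0%, beside 51.0%. With 1 start per gene, 41 of the 56 regions had a member as the closest protein-coding gene, but among genes of any type 11 did (19.6%). With the starts of every transcript these counts were 48 for protein-coding transcripts and 20 (35.7%) for transcripts of any type. Another shared region stood within 5 kb for 15 of 56 (26.8%, Wilson interval 17.0 to 39.6%), beside 32.4% of all shared regions.

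The proximity score adds, over the shared regions closest to a gene's start, a weight that falls with distance by a decay length of 5000 bp, so it rewards regions at starts. A gene is called when its score is above the mean plus 1 SD of genes with a region, which was 0.993. Lrrtm1 was called with 1.09, 1 of 9 members, beside 6.35% of protein-coding genes, and without ab1 or without ab2 no member was called. With the midpoint of the highest-scoring peak in place of that of the merged region, Lrrtm1 was still called, with 1.08 against a limit of 0.992. With a decay length of 1000 bp the limit was 0.653, and Lrrtm2 with 0.928 was called and Lrrtm1 with 0.333 was not. Lrrtm2 was just under the limit with 0.985, from a region closer to another gene's start once every protein-coding transcript was counted. Nlgn1 reached 0.816 and Nrxn2 0.393, while Lrrtm3 had 0.0605 and Nlgn3 0.0263. Without ab1, or without ab2, the scores of Nlgn1, Nrxn2, Lrrtm2, Lrrtm3 and Nlgn3 were 0. With protein-coding starts alone Nrxn2 rose to 1.01 and Nlgn1 to 1.03, under the limit of 1.08 for that setting. For Nrxn3 the score was 1.19e-12, although the locus held 21 shared regions, since only 1 of them was closer to its start than to any other, at 137.3 kb. Nlgn2 and Lrrtm4 had a score of 0, since no shared region was closest to their start.

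An extended E-box stood in the central 200 bp of 38 of the 56 shared regions, 67.9% (Wilson interval 54.8 to 78.6%), beside 59.6% of all shared regions. Among those more than 10 kb from the start of any gene the shares were 69.8% (54.9 to 81.4%) for 43 member regions and 66.7% for all, so that the members' share was not set apart from the background beyond its counting error. In windows of the same length 1000 bp outside the regions the share was 17.9% (11.9 to 26.0%) for the members and 22.3% for all. The core CAGATG, read as CATCTG on the other strand, occurred in 22 of 56 member regions (39.3%, beside 39.1% of all), CAGCTG in 13 (23.2%, beside 23.4%) and CATATG in 10 (17.9%, beside 10.6%). Of the regions with 1 antibody, 30 of 50 (60.0%) had an extended E-box, beside 57.1% of all such regions. None of the 5 member regions of ab1 alone within 1 kb of the start of a gene had one (Wilson interval 0 to 43.4%), beside 20.2% of all such regions. With the starts of every transcript it was 1 of 7 (14.3%, Wilson interval 2.57 to 51.3%), beside 24.6%. Searched over their whole length, 53 of 56 shared regions (94.6%) held at least 1, beside 90.3% of all shared regions.

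**Figure D5:**
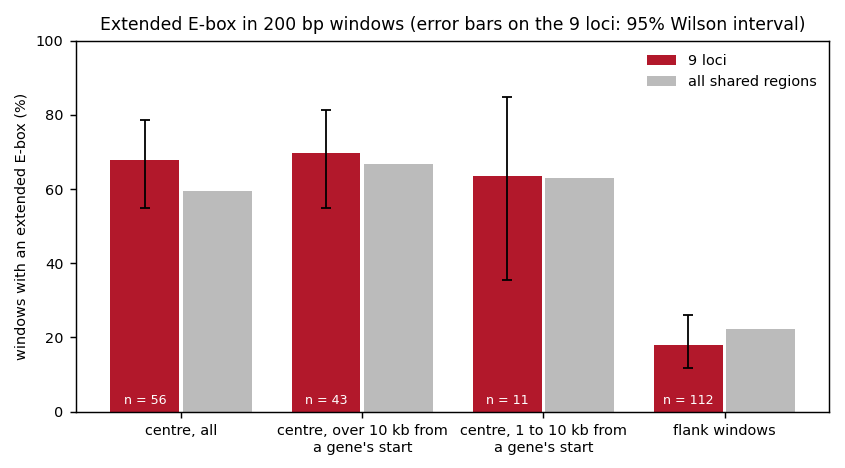
Bars give the percent of 200 bp windows with an extended E-box, in red for the 9 loci with 95% Wilson intervals (n is the number of windows) and in grey for all shared regions. The centre windows of the members, at 67.9%, stand above their flank windows, at 17.9%, and the grey bars lie within the red intervals in each class.

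Known binding partners and cofactors of these proteins were read in the same way, from a list of 20 genes. Shared regions were found at 17 of them (67.6% of protein-coding loci), a region with all 3 antibodies at 12 (26.7%), a shared region within 1 kb of the start of the longest transcript at 5 (20.8%) and a called proximity score at 4 (6.35%), with the share over all protein-coding genes in parentheses. The densest was Mdga1, whose protein binds neuroligins and keeps them from neurexins, with 19 shared regions, 7 of them with all 3 antibodies, and 7.89 per 100 kb, above 99.2% of protein-coding loci. Nxph4 and Nxph3, of the neurexophilins that bind alpha-neurexins, followed with 6 and 5 shared regions and 5.50 and 4.77 per 100 kb. No shared region was found at Nxph2, which had no peak at all, at Cbln1, which encodes a cerebellin that joins neurexins to a glutamate receptor family protein and had 2 regions of ab1 alone, or at Gphn, which encodes the inhibitory scaffold gephyrin and had 1. The median over the 20 genes was 1.21 shared regions per 100 kb, beside 1.74 for the 9 members and 0.950 for all protein-coding loci.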

How the data were processed

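Cortical chromatin of E14.5 BALB/c embryos was precipitated with 3 NEUROD2 antibodies and 2 GFP antibodies. The authors mapped single-end reads to mm10 with Bowtie, discarded duplicate and multiply mapping reads, and called peaks per antibody with MACS, with the host-matched GFP library as control. The deposited files give for each peak its position and a score, 10 times −log10 of the p-value, with a cutoff of 50, not scaled between libraries. Read depth was not analysed here.

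Peaks were placed by midpoint, merged across antibodies and located on GENCODE M21. Positions count from 1. E-boxes were searched in the GRCm38 genome. Every calculation used Python 3.11.15 with numpy 2.4.6. Merging, the locus rule, the E-box search, the proximity score and the search near starts were tested on simulated data, and the other steps were not. There is 1 library per antibody, so no test was made, and Wilson intervals have a 95% confidence level. The members and lists were chosen with earlier results of these data known. Regions named in full are the first of each locus, those near a member's start and the 5 highest, and others given were chosen after their values were seen. Partners named are the 3 densest and those without a shared region. Alternatives covered overlap, score cutoff, window, motif window, start sites, decay length and leaving out each antibody.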

Additional observations from a re-analysis of the deposited data

How the results depend on the processing

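Each antibody has 1 library and there is 1 condition, so the antibodies stand in for replicates. Of 54 values recomputed for the 9 members together, 35 stayed within 1.5 times the value given or, for the E-box share, within 1 SD of the antibodies (7.24 percentage points), and 19 moved. A score of at least 100 lowered the regions from 106 to 66, the shared regions from 56 to 34, those with all 3 antibodies from 10 to 2 and the median shared regions per locus from 4 to 2. Leaving out each antibody gave 60 to 106 regions, 10 to 56 shared regions, a median of 1 to 4 per locus, 0 to 1 members with a shared region within 1 kb of the start, 0 to 1 called proximity scores and an E-box share of 60 to 70%. Regions with all 3 antibodies cannot be counted with one left out. Without a window, and with a window of 10 kb, the median per locus was 2, and Nlgn2 had no shared region. The E-box share was 46.4% in the central 100 bp (39.8% of all shared regions) and 89.3% for any CANNTG (83.7%). Members with a shared region within 1 kb of a start rose from 1 to 3 with any annotated transcript, beside 24.8% of protein-coding genes. Distances to the starts of every transcript were added after seeing the data, and raised the shared regions with a member as the closest start of any type from 11 to 20. No paired analysis was possible because the result comes from no test between groups, and the GFP libraries enter only as controls of peak calling. For single loci, 49 of 81 recomputed counts of shared regions stayed within 1.5 times. The limits are the low number of ab3 peaks, scores that were not scaled between libraries, and loci shared with neighbouring genes.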
